A study of Mus musculus with 10 samples.

Results

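The ezrin-disrupted derivative of the mouse osteosarcoma line K7M2 that carries an empty vector was compared with the unedited parental K7M2 line. Both lines were chosen by sample title alone. They hold 4 of the 10 libraries of the series, 2 for each line. Every gene that passed a filter on low counts was kept, which left 12595 of the 41743 gene names in the files. K7M2 is a cell line grown from an osteosarcoma, a tumour of bone-forming cells, and is used as a model of spread to the lung. The empty-vector cells are labelled ezrin -/-, from CRISPR/Cas9 cutting at the ezrin locus, and mock transfected. The parental cells are labelled wild type, and neither line was treated. The other derived lines carry the same disruption with a stably transfected ezrin cDNA, as wild type or with T567A or T567D, 2 libraries each, and serve here only to set the empty-vector line beside other edited cells. The titles of all derived lines share the tag col3. Each may therefore go back to 1 edited clone, and each construct was carried by 1 line. Disruption, cloning and vector changed together between the empty-vector and parental lines, so their shares in any difference below cannot be told apart. Protein was not measured.

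Ezrin, radixin and moesin, together the ERM proteins, tie actin filaments to proteins of the plasma membrane. They switch between a closed form in the cytoplasm and an open form at the membrane, which phosphorylation of a threonine near the end of the protein favours. Merlin, encoded by Nf2, is a related protein that restrains growth. In osteosarcoma, ezrin is known for its link with metastasis to the lung.

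Poly-A RNA was sequenced. The 4 libraries held 17227902 to 17715944 counts, a range within which depth hardly differs. Levels are given in CPM (counts scaled to a common library size) scaled by trimmed mean of M values (TMM), 1 value for each library. CPM are not corrected for gene length, so they compare a gene between lines and not genes with each other. Differences are log2 values, empty vector minus parental, with the standard error after ±. A gene is called, and is said to have risen or fallen, where edgeR's quasi-likelihood test gave a Benjamini-Hochberg adjusted p under 0.05 over all tested genes. Whether both libraries of 1 line were grown as separate cultures is not in the labels, and p-values cover the difference between libraries, possibly technical, and no more. Markers fixed for the labelled cell type were in part present: Runx2, Col1a1, Col1a2, Spp1, Sparc and Alpl passed 1 CPM in every library of both lines. The late osteoblast markers Sp7, Ibsp, Bglap and Dmp1 were at or near 0 in both. The 10 osteoblast markers summed to 4458 to 4522 CPM in the empty-vector libraries and 7168 to 7317 CPM in the parental libraries. Of these markers Col1a1, Col1a2 and Sparc fell, Alpl and Spp1 rose and Runx2 was not called, so the sum does not stand for each of them. Of 6 macrophage and leukocyte markers 2 passed 1 CPM, and their sum, 1552 to 1597 CPM in empty-vector and 1178 to 1186 CPM in parental libraries, was nearly all Csf1r, while Ptprc and Adgre1 had no count in any of the 4. Epithelial, endothelial, chondrocyte, muscle and adipocyte markers summed to under 3 CPM each.

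Most of the transcriptome differed between the lines, in both directions and mostly by little. Of the 12595 tested genes, 6879 were called (54.6%), 3448 higher (27.4%) and 3431 lower (27.2%) in the empty-vector line. The other 5716 did not pass the test. A fitted difference over 2-fold was found in 1663 genes (13.2%), 853 higher and 810 lower, and one over 4-fold in 631, 345 higher and 286 lower. Conversely, 3883 of the calls were under 1.5-fold. The share of genes called grew with the level in the higher line. It was 28.1% of 943 genes under 1 CPM, 49.4% of 2494 genes at 1 to 10 CPM, 56.5% of 6410 genes at 10 to 100 CPM and 64.1% of 2748 genes over 100 CPM. Calls over 2-fold made up 29.8% of genes at 1 to 10 CPM and 6.33% of genes over 100 CPM.

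**Figure D1:**
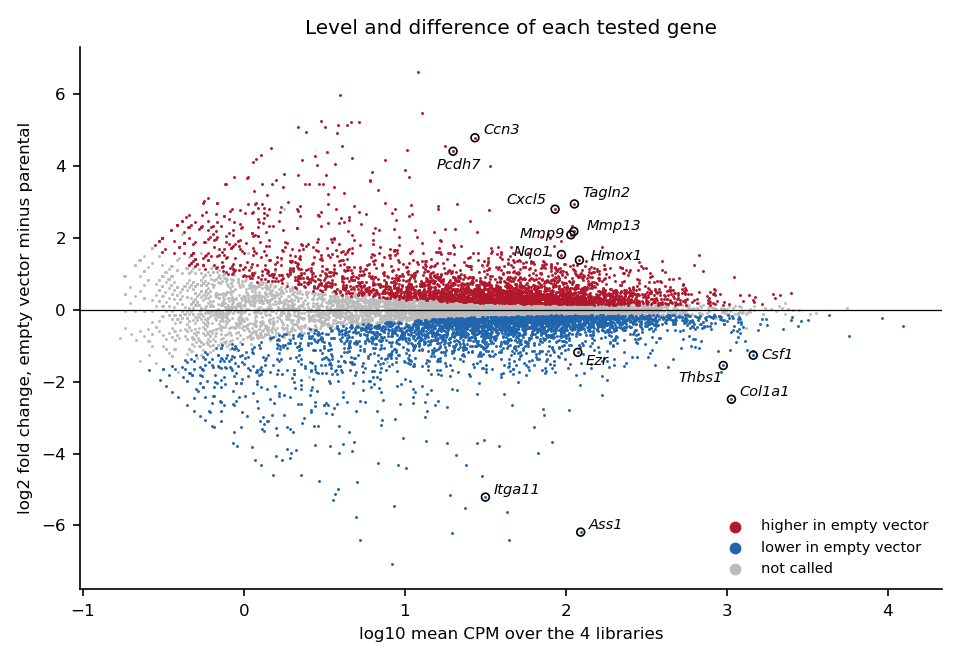
Each point is 1 tested gene, with its mean level over the 4 libraries in CPM on a log axis and the log2 difference, empty vector minus parental, on the other axis. Genes called higher and genes called lower are coloured, the rest are grey, and 12293 genes are drawn, without the 302 that had at most 3 counts in 1 of the lines. Both colours reach over the whole range of levels.

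Transcripts of Ezr were fewer in the empty-vector line but far from absent. Its level was 72.4 and 72.9 CPM in the empty-vector line, against 164 and 166 CPM in the parental line, a difference of -1.18 ± 0.066 (adjusted p 2.1e-12 by edgeR's test). The 2 lines did not overlap. The deposited counts cover the whole gene name and do not show where in the gene the reads lie, so they check neither the edit nor the reading frame of the remaining transcript. The other members of the family fell as well. Rdx, which encodes radixin, had 242 and 249 CPM in the empty-vector line, against 316 and 343 CPM in the parental line (-0.43 ± 0.062). Msn, which encodes moesin and lies on the X chromosome, had 529.6 and 527 CPM in the empty-vector line, against 642 and 667 CPM in the parental line (-0.31 ± 0.056). Nf2 had 142 and 147 CPM in the empty-vector line, against 196 and 195 CPM in the parental line (-0.43 ± 0.061). Thus 4 of 4 members were called lower, beside 27.2% of all tested genes, with a median of -0.43 beside 0 over all genes. Most genes on the chromosomes of Rdx and Msn, 9 and X, were also shifted down, as described further on.

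The promoter of Ezr and 4 others are shown because the genes they serve mark the ends of the range described here: the targeted gene, a gene with reads in the empty-vector line and none in the parental line, a neighbour that rose with it, and 2 genes that were nearly silent in the empty-vector line. Each is the stretch from 250 to 71 bases before the RefSeq start of the gene on GRCm38.p6, 180 bases, written 5′ to 3′ on the gene's own strand. They lie at chr17:6782851-6783030 for Ezr (minus strand), chr13:113035129-113035308 for Cdc20b (plus), chr13:112987552-112987731 for Ccno (plus), chrX:73930921-73931100 for Renbp (minus) and chr8:83899848-83900027 for Adgrl1 (plus). Capitals mark a match to the NF-kB motif (GGG, any 3 bases, then TTCC), searched on both strands and held by 4.25% of 9735 promoters of this length. The letters TGANTCA (AP-1, 4.12%), TGACNNNGC (antioxidant response element, 8.84%) and TATAAA (5.73%) were searched in the same way and are not in these 5 windows.
Ezr: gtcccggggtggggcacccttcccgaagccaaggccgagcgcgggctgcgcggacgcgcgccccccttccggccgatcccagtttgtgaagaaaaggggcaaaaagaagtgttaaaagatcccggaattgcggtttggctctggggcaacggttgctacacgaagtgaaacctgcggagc
Cdc20b: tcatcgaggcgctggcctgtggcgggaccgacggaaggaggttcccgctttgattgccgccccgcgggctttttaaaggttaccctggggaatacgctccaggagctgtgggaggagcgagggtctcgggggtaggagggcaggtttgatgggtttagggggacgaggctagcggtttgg
Ccno: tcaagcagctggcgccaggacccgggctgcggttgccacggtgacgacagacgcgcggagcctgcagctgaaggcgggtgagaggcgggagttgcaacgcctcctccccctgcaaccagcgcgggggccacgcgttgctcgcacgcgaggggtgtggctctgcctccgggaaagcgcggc
Renbp: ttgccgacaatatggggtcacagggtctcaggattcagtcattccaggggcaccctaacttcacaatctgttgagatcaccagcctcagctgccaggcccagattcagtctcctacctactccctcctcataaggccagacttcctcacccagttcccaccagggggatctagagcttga
Adgrl1: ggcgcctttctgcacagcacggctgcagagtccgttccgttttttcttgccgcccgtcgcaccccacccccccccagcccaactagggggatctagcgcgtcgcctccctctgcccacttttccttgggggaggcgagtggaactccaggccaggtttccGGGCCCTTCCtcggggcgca
A match says only that these letters are in the window.

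The tested genes next to Ezr on chromosome 17 did not follow it. On the side of lower coordinates, 5 of 5 neighbours rose. They were Tmem181a (0.62 ± 0.071) and the dynein light chain genes Dynlt1a (0.46 ± 0.15), Dynlt1b (0.33 ± 0.077), Dynlt1c (0.37 ± 0.15) and Dynlt1f (0.28 ± 0.071). The 4 Dynlt1 genes are near-identical copies, and how reads were split between them is uncertain. On the other side, only the kinase gene Rps6ka2 was called, with 14.8 and 12.8 CPM in the empty-vector line, against 22.2 and 22 CPM in the parental line (-0.68 ± 0.1). The adjusted p of Rsph3b, Tagap1, Rnaset2b and Tagap was 0.06 or above.

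Genes for the membrane proteins and adaptors that ERM proteins bind were mostly higher. Of 16 tested, 10 were called higher and 3 lower, with a median of 0.22. Cftr, a chloride channel held at the membrane through ezrin's adaptors, had 7.63 and 7.35 CPM in the empty-vector line, against 0 and 0.408 CPM in the parental line (5.15 ± 0.36). Podxl, a sialomucin, had 3.5 and 3.01 CPM in the empty-vector line, against 1.45 and 0.992 CPM in the parental line (1.41 ± 0.24). Cd44, the hyaluronan receptor, had 541 and 562 CPM in the empty-vector line, against 386 and 405 CPM in the parental line (0.48 ± 0.058). The syndecans, proteoglycans of the cell surface, moved the same way, with log2 differences for Sdc3 of 1.03, Sdc1 of 0.39, Sdc4 of 0.22 and Sdc2 of 0.17. Pdpn, which encodes podoplanin, was at 0.36. The members that fell were the adhesion receptor Icam1 (-1.67), Cd99l2 (-0.52) and the adaptor Slc9a3r1 (-0.26).

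Kinases and phosphatases that act on ERM proteins changed little. Of 13 tested, 4 were called higher, 1 lower and 8 were not called, with a median of 0.05, and 2 were higher without parental replicate 1. The largest change was in Ppp1cb, a catalytic subunit of protein phosphatase 1, with 437 and 432 CPM in the empty-vector line, against 190.2 and 200.3 CPM in the parental line (1.15 ± 0.071). It lies in a stretch of chromosome 5 in which most genes rose. The receptor phosphatase Ptprj was at 0.70, the myosin phosphatase subunit Ppp1r12a at 0.30 and the kinase Slk at 0.18. Lats2, a Hippo pathway kinase, fell (-0.25). Rock1 (0.01), Rock2 (0.05), Stk10 (0.13) and Map4k4 (-0.03) were not called.

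Among actin and contractility genes 11 were called higher, 9 lower and 8 were not called of 28. Tagln2, which encodes an actin-binding protein, had 209 and 192 CPM in the empty-vector line, against 26.6 and 25.3 CPM in the parental line (2.95 ± 0.082). Smooth muscle actin, Acta2, had 23.7 and 20.9 CPM in the empty-vector line, against 12 and 10.8 CPM in the parental line (0.97 ± 0.11). The focal adhesion gene Zyx (0.59), the formin Diaph1 (0.51) and the severing protein Gsn (0.47) also rose. In the other direction, Fscn1, which bundles actin filaments in protrusions, had 557 and 533 CPM in the empty-vector line, against 1275 and 1158 CPM in the parental line (-1.16 ± 0.072). Calponin 2, Cnn2, was at -1.01, plastin 3, Pls3, at -0.85 and vinculin, Vcl, at -0.52. The list as a whole therefore has no common direction, and the myosin gene Myh9 (0.05) was not called. Outside the shifted chromosomes and stretches described further on, 11 were called higher and 5 lower of 24, with a median of 0.26. All 4 members inside them, Pls3 among these, were called lower.

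A small set of genes was switched nearly off in the empty-vector line. At most 3 counts over both empty-vector libraries, beside at least 5 CPM in both parental libraries, were found for 18 genes, 17 of them protein coding, and 6 had no count at all. In the reverse direction there were 2. Fitted fold changes of such genes depend on the settings of the fit, so ratios of counts are given with an exact 95% binomial interval, and a gene with no count is compared with a floor of 3 counts per library. Intervals and floors cover counting error only.

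Mmp2, which encodes the gelatinase that cuts collagen IV and denatured collagen, had 1 and 0 counts in the empty-vector libraries and 2068 and 2004 in the parental libraries. The gene lies at chr8:92827291-92853420. Of the 4 tested genes nearest to it, Irx5 was at -0.56, Crnde (-0.11) and Ces1g (0.06) were not called, and Ces1d, called higher (adjusted p 0.041, edgeR), averaged 0.142 CPM in the empty-vector line and had no count in the parental line. Renbp, which encodes an enzyme of N-acetylglucosamine and sialic acid metabolism, had 0 and 1 counts in the empty-vector libraries against 649 and 580 in the parental libraries, a ratio of 1252 (interval 224 to 49481). It lies on the X chromosome at chrX:73922121-73930850, between Naa10 (-1.06) and Hcfc1 (-0.35), which also fell. Adgrl1, an adhesion G protein-coupled receptor, had 0 and 1 counts in the empty-vector libraries against 242 and 284 in the parental libraries, a ratio of 536 (interval 95.7 to 21199.9).

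Nsd1, which encodes a methyltransferase for lysine 36 of histone H3, had no count in either empty-vector library and 374 and 437 in the parental libraries. It lies at chr13:55209782-55318325. Of the 4 tested genes nearest to it 3 rose: Zfp346 was at 0.67 ± 0.08, Rab24 at 0.20 ± 0.079 and Prelid1 at 0.62 ± 0.064, while Uimc1 was not called (0.17). The uncharacterised gene 3830403N18Rik on the X chromosome had no count in the empty-vector line against 332 and 314 in the parental line, at least 109.6-fold lower. The potassium channel gene Kcnk5 had none in the empty-vector line against 143 and 155 in the parental line, at least 50.6-fold lower.

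The other genes of this set were at 5.53 to 8.94 CPM on average in the parental line. They included the vitamin A receptor Stra6, the growth factor Tgfa, the sialic acid-binding lectin Siglecg, the transcription factor Sox13 and the matrix-associated gene Islr, which lies close to Stra6 on chromosome 9. Of the 18, 16 were also under 1 CPM in each of the 6 libraries of the ezrin-carrying lines. At the median, promoters of the 18 held fewer CG dinucleotides than those of all tested genes, but the 2 ranges overlapped widely. For the 15 with a promoter entry the median was 4 (quartiles 2 and 13, range 0 to 24) in the 180 bases. Over 9735 tested genes with an entry it was 10 (quartiles 6 and 16). Where a gene had several starts, the window with the most CG was counted. The 15 were chosen by their counts and the comparison is a description. Of the promoters printed above, that of Renbp holds 1 CG and that of Adgrl1 holds 14.

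Cdc20b showed the reverse. It belongs to the family of the cell cycle regulator Cdc20 and is known from multiciliated cells. It had 601 and 585 counts in the empty-vector libraries, 34 and 33.8 CPM, and none in the parental libraries, so it was at least 194-fold higher. Its neighbours on the side of lower coordinates, which serve the same cell type in textbook accounts, rose too. Ccno, an atypical cyclin, had 11.2 and 11.6 CPM in the empty-vector line, against 2.79 and 2.1 CPM in the parental line (2.22 ± 0.17), and Mcidas, a regulator of multiciliated cells, had 0.791 and 0.578 CPM in the empty-vector line, against 0.116 and 0.117 CPM in the parental line (2.49 ± 0.63). Gpx8, which overlaps the span of Cdc20b at chr13:113035111-113091195, had 110.3 and 109 CPM in the empty-vector line, against 111 and 109 CPM in the parental line and was not called. No source used here gives the strand setting of the counting, so counts of overlapping genes are uncertain. Bambi, a decoy receptor of the TGF-beta family, was the other gene near 0 in parental cells, with 135 and 128 counts in the empty-vector libraries against 0 and 3 in the parental libraries, a ratio of 86.1 (interval 29.1 to 420.1).

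The 20 largest decreases and 20 largest increases among genes that reach 10 CPM in 1 of the lines, without clone-type names such as 3830403N18Rik, are drawn by library. Beyond the genes near 0, the decreases included regulators of actin and migration. Fmnl1, a formin of blood cells and macrophages, had 1.07 and 0.983 CPM in the empty-vector line, against 89.2 and 87.6 CPM in the parental line (-6.41 ± 0.14). Itga11, the integrin subunit that binds fibrillar collagen, had 2.03 and 1.27 CPM in the empty-vector line, against 62.7 and 60.7 CPM in the parental line (-5.21 ± 0.15). Prex2, an activator of the GTPase Rac, had 2.37 and 2.43 CPM in the empty-vector line, against 37.3 and 41.2 CPM in the parental line (-4.03 ± 0.16). Avil, an actin-severing protein, had 7.52 and 8.68 CPM in the empty-vector line, against 128 and 126 CPM in the parental line (-3.97 ± 0.091). In none of these did the libraries of the lines overlap.

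Ass1, the enzyme that joins citrulline and aspartate on the way to arginine, had 3.73 and 2.95 CPM in the empty-vector line, against 256 and 232 CPM in the parental line. Chd3, a chromatin remodeller, had 2.26 and 2.37 CPM in the empty-vector line, against 57.9 and 57.7 CPM in the parental line (-4.64 ± 0.12). Lncpint, a long non-coding RNA, had 1.02 and 0.983 CPM in the empty-vector line, against 42.5 and 49.5 CPM in the parental line (-5.51 ± 0.16). Receptors of the immune system were in the same group. Tlr7, a sensor of single-stranded RNA, had 1.3 and 2.08 CPM in the empty-vector line, against 81.2 and 87.8 CPM in the parental line (-5.64 ± 0.15), and Il2rg, the common gamma chain of interleukin receptors, had 0.226 and 0 CPM in the empty-vector line, against 16.8 and 16.3 CPM in the parental line (-7.09 ± 0.34). Both are X-linked, as is Pir, which encodes the iron-binding protein pirin (-5.46 ± 0.22). The remaining decreases were Megf6 (-6.21 ± 0.18), Elfn1 (-5.15 ± 0.18), the sodium pump subunit Atp1b1 (-4.40 ± 0.18), Medag (-4.33 ± 0.15), the galactosyltransferase B4galt2 (-4.31 ± 0.2) and Sbsn (-4.28 ± 0.22).

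The increases held several adhesion and signalling genes. Pcdhgb7, a clustered gamma protocadherin, had 23.5 and 24.2 CPM in the empty-vector line, against 0 and 0.467 CPM in the parental line (6.63 ± 0.28). Pcdh7, a non-clustered protocadherin, had 35.9 and 40.3 CPM in the empty-vector line, against 1.74 and 1.81 CPM in the parental line (4.42 ± 0.13). Tns1, which encodes tensin at focal adhesions, had 30.7 and 37.7 CPM in the empty-vector line, against 1.51 and 1.34 CPM in the parental line (4.58 ± 0.16). Ccn3, a secreted matricellular protein, had 51.5 and 53.7 CPM in the empty-vector line, against 1.69 and 2.1 CPM in the parental line. Each of these was barely detected in parental cells.

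Plce1, a phospholipase C, had 9.27 and 10.9 CPM in the empty-vector line, against 0.407 and 0.117 CPM in the parental line (5.23 ± 0.29). The secreted ligands Wnt5a, with means of 19.7 CPM in the empty-vector line and 1.51 CPM in the parental line, and Bmp2, with 10.6 and 11.7 CPM in the empty-vector line, against 0.872 and 0.933 CPM in the parental line, were also low in the parental line. Trpa1, an ion channel of sensory neurons, had 13.2 and 15.3 CPM in the empty-vector line, against 0.465 and 1.11 CPM in the parental line (4.17 ± 0.21). Peg12, a paternally expressed imprinted gene, had 25.7 and 24.5 CPM in the empty-vector line, against 0.291 and 0.817 CPM in the parental line (5.48 ± 0.2), and Tdrd9, a helicase of the piRNA pathway in germ cells, had 19.6 and 18.9 CPM in the empty-vector line, against 2.38 and 2.68 CPM in the parental line (2.92 ± 0.16). The other increases were the tubulin-modifying enzyme Ttll7 (4.00 ± 0.12), the microtubule-associated Mtus1 (4.44 ± 0.16), the receptor Cd300lb (3.90 ± 0.17), Ephb6 (3.83 ± 0.26), Fer1l6 (3.58 ± 0.21), the aldo-keto reductase Akr1c14 (3.33 ± 0.18), Btbd11 (2.97 ± 0.17) and Mfsd6 (2.94 ± 0.11). Across all 40 genes adjusted p lay between 1.1e-20 and 4.4e-10 in edgeR's test.

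**Figure D2:**
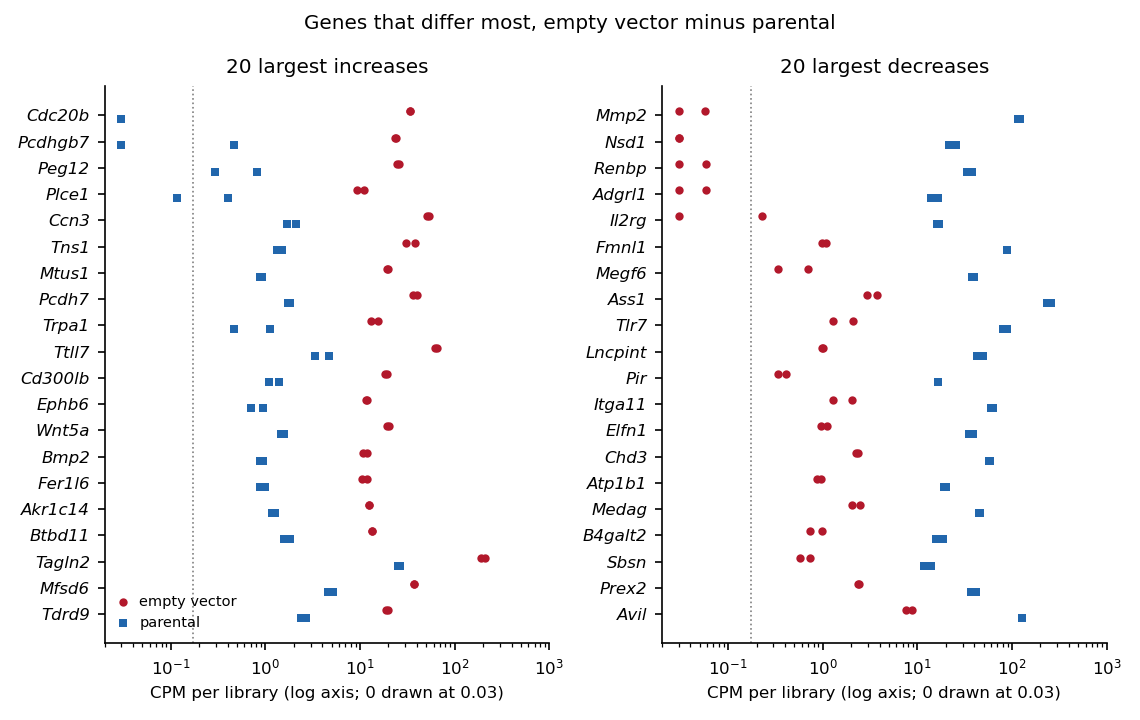
The level of each gene in CPM, on a log axis, in each empty-vector and each parental library, for the 20 genes with the largest decrease and the 20 with the largest increase. The dotted line marks the floor of 3 counts per library, a library with no count is drawn at the left edge, and the 2 lines are apart in every row, from Mmp2 and Nsd1 at one end to Cdc20b at the other.

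Of the genes over 2-fold, the 10 with the highest CPM were 9 that fell and 1 that rose. CPM favours long transcripts, so this is an order of read counts and not of molecules. Col1a1, the main collagen chain of bone, had 320.3 and 327 CPM in the empty-vector line, against 1805 and 1827 CPM in the parental line. Timp3, a matrix-bound inhibitor of metalloproteinases, had 415 and 439 CPM in the empty-vector line, against 1367 and 1469 CPM in the parental line (-1.73 ± 0.083). Thbs1, which encodes thrombospondin 1, had 463 and 506 CPM in the empty-vector line, against 1349.5 and 1486 CPM in the parental line (-1.55 ± 0.064). These 3 fell, as did Csf1, the growth factor of macrophages and osteoclast precursors, with 858 and 862 CPM in the empty-vector line, against 2044 and 2081 CPM in the parental line (-1.26 ± 0.056). Clca3a1 (-1.15 ± 0.059), the tubulin gene Tubb4b (-1.11 ± 0.06), the ribosomal protein gene Rps4x (-1.11 ± 0.058), the mitochondrial ADP/ATP carrier Slc25a5 (-1.06 ± 0.056) and Fscn1, described above, fell too. Mrfap1 was the only one of the 10 that rose (1.07 ± 0.056). It had 975 and 946 CPM in the empty-vector line, against 470.4 and 444 CPM in the parental line. Csf1, Tubb4b, Rps4x, Slc25a5 and Mrfap1 lie in regions in which most genes moved the same way, as described further on. By length-corrected RPKM of the authors' tables, Rps4x averaged 381 in the empty-vector line and 798 in the parental line, and Col1a1 averaged 46.3 in the empty-vector line and 252 in the parental line.

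The rest of the account goes by function. Of 1417 genes in 50 groups, 1136 passed the filter on low counts and 281 did not. Counts of a group are read against the 27.4% of all tested genes called higher and the 27.2% called lower, and a group near these shares is not set apart by its count. The groups were chosen with earlier results of these data known. Of the 1136 listed genes, 771 were called, 355 higher and 416 lower, a larger share than the 54.6% of all tested genes. A group above the shares of all genes may therefore be like the other groups. Values given for a named member without its libraries are log2 differences.

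Collagen genes moved in both directions, with 8 called higher and 10 lower of 21 tested and a median of -0.30. Col1a2, which encodes the partner chain of Col1a1 in type I collagen, fell by little, with 2933 and 2893 CPM in the empty-vector line, against 3529.96 and 3527 CPM in the parental line (-0.28 ± 0.055). Col5a2, a fibril-regulating chain, was at -0.48, and Col12a1, which decorates fibrils, had 10.3 and 11.9 CPM in the empty-vector line, against 37.3 and 42.2 CPM in the parental line (-1.84 ± 0.11). The chains that rose included Col3a1 (0.78), Col16a1 (0.92), Col18a1, the basement membrane source of endostatin (0.58), and Col8a1 (0.43). Of enzymes that process and cross-link collagen 6 were called higher and 7 lower of 16. Lox, the main lysyl oxidase, had 254 and 256 CPM in the empty-vector line, against 455 and 486 CPM in the parental line (-0.88 ± 0.078), while the lysyl hydroxylase Plod1 had 123 and 123 CPM in the empty-vector line, against 60.1 and 52.2 CPM in the parental line (1.13 ± 0.091).

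Small leucine-rich proteoglycans, which bind collagen and growth factors, were called lower in 5 of 6 members, with a median of -1.25. Prelp had 25.5 and 27.2 CPM in the empty-vector line, against 184 and 182 CPM in the parental line (-2.80 ± 0.081). Bgn, which encodes biglycan, had 803 and 809 CPM in the empty-vector line, against 1511 and 1474 CPM in the parental line (-0.89 ± 0.068). Ogn and Omd, which encode osteoglycin and osteomodulin and are neighbours on chromosome 13, were at -1.27 ± 0.072 and -1.50 ± 0.13. Of the 6 members, 4 lie on chromosomes 13 and X. Dcn was the only one higher, with 7 counts in the empty-vector line against 0 in the parental line, near the floor, a call lost without parental replicate 1, parental replicate 3 or empty-vector replicate 3.

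Other matrix glycoproteins split into 11 higher, 9 lower and 6 not called of 26. Sparc, a collagen-binding protein of bone, had 937 and 905 CPM in the empty-vector line, against 1772 and 1609 CPM in the parental line (-0.88 ± 0.06). Spp1, which encodes osteopontin, moved the other way, with 294 and 293 CPM in the empty-vector line, against 172 and 165 CPM in the parental line (0.80 ± 0.061). Fbln2 had 332 and 332 CPM in the empty-vector line, against 159 and 164 CPM in the parental line (1.04 ± 0.064), Lamb1 was at 0.78 and Fn1, which encodes fibronectin, at 0.47. Emilin1, at 1.20, lies in the chromosome 5 stretch where most genes rose.

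Matrix metalloproteinases and their inhibitors were called higher in 7 and lower in 7 of 17. The loss of Mmp2 stood beside increases of other secreted proteases. Mmp13, the main collagenase of the mouse, had 187 and 181 CPM in the empty-vector line, against 41.8 and 39.2 CPM in the parental line (2.18 ± 0.18). Mmp9, the other gelatinase, had 171 and 178 CPM in the empty-vector line, against 43.1 and 38.7 CPM in the parental line (2.09 ± 0.078). Mmp3, stromelysin 1, had 44.4 and 41.7 CPM in the empty-vector line, against 8.43 and 7 CPM in the parental line (2.48 ± 0.12), and Mmp10, stromelysin 2, was at 1.73. Mmp3, Mmp10 and Mmp13 sit together on chromosome 9, where most other genes fell. The membrane-bound Mmp14, which activates pro-MMP2, had 307 and 299.5 CPM in the empty-vector line, against 154 and 144 CPM in the parental line (1.02 ± 0.065). Of the inhibitors, Timp2 had 1450.01 and 1454 CPM in the empty-vector line, against 781 and 753 CPM in the parental line (0.92 ± 0.055), while Timp1 was at -1.13 and Timp3, given above, fell.

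Plasminogen system and serpin genes were called higher in 5 and lower in 2 of 7, with a median of 0.59, and 1 was lower without parental replicate 3 or either empty-vector library. The serpins Serpinb6a and Serpinb9 are among the 5 and lie on chromosome 13, where most genes rose, and outside it 3 were higher and 2 lower of 5. Plat, tissue plasminogen activator, had 28.5 and 30.6 CPM in the empty-vector line, against 6.74 and 5.66 CPM in the parental line (2.25 ± 0.11). Urokinase, Plau, was at 0.59 and its receptor Plaur at 0.62. Of ADAM and ADAMTS proteases 8 were called higher and 5 lower of 16. The aggrecanase gene Adamts5 had 30.7 and 36.7 CPM in the empty-vector line, against 107 and 121 CPM in the parental line (-1.76 ± 0.092), and Adamts4, another aggrecanase, had 6.33 and 6.71 CPM in the empty-vector line, against 1.28 and 1.17 CPM in the parental line (2.41 ± 0.23).

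Regulators of bone formation did not move as a group, with 5 called higher, 7 lower and 3 not called of 15, and 4 higher and 4 lower without parental replicate 1. Runx2, the master regulator of osteoblasts, had 32.3 and 32.9 CPM in the empty-vector line, against 35.7 and 38.4 CPM in the parental line and was not called (adjusted p 0.08 in edgeR's test). Alkaline phosphatase, Alpl, had 5.2 and 6.07 CPM in the empty-vector line, against 2.27 and 1.69 CPM in the parental line (1.51 ± 0.22). Tnfrsf11b, which encodes the RANKL decoy osteoprotegerin, had 2.26 and 1.97 CPM in the empty-vector line, against 0.291 and 0.233 CPM in the parental line (2.98 ± 0.38). Bmp4 fell, with 129.9 and 128 CPM in the empty-vector line, against 257 and 236 CPM in the parental line (-0.93 ± 0.062), where Bmp2 rose. Phex, an X-linked regulator of phosphate, was at -0.86.

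Ligands and receptors of the BMP and TGF-beta families split into 10 higher, 10 lower and 9 not called of 29. The ligand Tgfb3 had 4.3 and 5.03 CPM in the empty-vector line, against 27.5 and 27.1 CPM in the parental line (-2.55 ± 0.15) and Tgfb2 had 6.61 and 7.4 CPM in the empty-vector line, against 20.5 and 21.1 CPM in the parental line (-1.57 ± 0.13). Tgfb1 had 57 and 57.8 CPM in the empty-vector line, against 24.8 and 24.8 CPM in the parental line (1.21 ± 0.075). The receptor Tgfbr2 was at -1.30 and Acvrl1 at 2.61, and the BMP antagonist Grem1 had 165 and 168 CPM in the empty-vector line, against 71 and 68.2 CPM in the parental line (1.26 ± 0.079). The direct targets Id1 (0.09), Id2 (0.29) and Id3 (-0.41) were not called.

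Wnt pathway genes had 4 called higher and 7 lower of 17. The co-receptor Lrp5, required for bone mass, had 17.4 and 16.3 CPM in the empty-vector line, against 52.2 and 53.7 CPM in the parental line (-1.66 ± 0.088). The receptor Fzd2 had 10.2 and 9.6 CPM in the empty-vector line, against 34.1 and 31.3 CPM in the parental line (-1.72 ± 0.13), Fzd1 was at -1.74 and Lrp4 at -1.77, while Fzd7 rose (0.81). The transcription factor Tcf7l2 was not called (-0.01).

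Genes of the CCN family and targets of the co-activators YAP and TAZ were called lower in 13 and higher in 4 of 21, with a median of -0.37. Amotl2 had 390.2 and 409 CPM in the empty-vector line, against 786 and 818 CPM in the parental line (-1.01 ± 0.059), and Ajuba was at -0.61, Ankrd1 at -0.46 and Ccn4 at -1.42. The common reporters Ccn1 (-0.03) and Ccn2 (-0.17) were not called, nor was Yap1 itself (-0.29). Wwtr1, which encodes TAZ, rose, with 115 and 121 CPM in the empty-vector line, against 63.5 and 63.8 CPM in the parental line (0.89 ± 0.078). F3, which encodes tissue factor, had 7.86 and 7.75 CPM in the empty-vector line, against 0.291 and 0.35 CPM in the parental line (4.58 ± 0.26).

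The insulin-like growth factor axis had 6 members called lower and 2 higher of 11. Igfbp4, a binding protein that holds IGF, had 12.1 and 11.6 CPM in the empty-vector line, against 158 and 145 CPM in the parental line (-3.67 ± 0.083). Igf2r, the imprinted clearance receptor for IGF2, had 177 and 206 CPM in the empty-vector line, against 72.4 and 77.7 CPM in the parental line (1.35 ± 0.078). The adaptors Irs1 (-0.46) and Irs2 (-0.52) and the receptor Insr (-0.51) fell, and Igf1r was not called (0.13). Without parental replicate 3 or empty-vector replicate 2, 5 members were called, 1 of them higher, and 1 was also higher without parental replicate 1.

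Receptor tyrosine kinases were called lower in 8 and higher in 4 of 15. Met, the hepatocyte growth factor receptor, had 85.3 and 92 CPM in the empty-vector line, against 140.2 and 144 CPM in the parental line (-0.68 ± 0.069). Pdgfrb was at -0.49, Egfr at -0.48, Fgfr1 at -0.56 and Erbb2 at -0.38. Csf1r, the receptor for Csf1, rose, with 1549 and 1594 CPM in the empty-vector line, against 1176 and 1183 CPM in the parental line (0.41 ± 0.056), while its ligand fell. Axl was at 0.27. Members at 0 counts in the empty-vector line included Erbb3, at least 4.41-fold lower than 15 and 11 counts in the parental line.

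Integrins were called higher in 8 and lower in 5 of 16. The widely used beta 1 chain, Itgb1, had 903 and 937 CPM in the empty-vector line, against 637 and 656 CPM in the parental line (0.51 ± 0.062). Itgav, the alpha chain of vitronectin receptors, was at 0.70, Itga5, the fibronectin receptor chain, at 0.49 and Itga6, a laminin receptor chain, at 0.89. Itgb2, the leukocyte beta chain, had 41.3 and 37.8 CPM in the empty-vector line, against 136 and 127 CPM in the parental line (-1.73 ± 0.076) and Itga3 was at -0.72. Among collagen receptors Itga11 and Itga2 (-1.66 ± 0.23) fell, while Itga1 had 5.76 and 6.3 CPM in the empty-vector line, against 0.465 and 0.817 CPM in the parental line (3.22 ± 0.27).

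Cadherins and non-clustered protocadherins had 6 called higher and 5 lower of 13. N-cadherin, Cdh2, was at 0.48, and Pcdh10 had 18.5 and 17.9 CPM in the empty-vector line, against 2.44 and 3.5 CPM in the parental line (2.61 ± 0.16). Pcdh1 had 16.2 and 14.6 CPM in the empty-vector line, against 48.6 and 47.6 CPM in the parental line (-1.64 ± 0.1) and the X-linked Pcdh19 was at -0.87. Of the clustered protocadherins, which give single cells a surface identity, 27 of 58 names were tested, with 13 called higher and 8 lower. These genes share their last exons, and how reads were split among them is uncertain.

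Guidance molecules moved in both directions, with 6 of 13 ephrin and Eph genes higher and 6 lower, and 10 of 24 semaphorin, plexin, netrin and slit genes higher and 10 lower. Ephb4 had 4.3 and 4.74 CPM in the empty-vector line, against 23.7 and 21.9 CPM in the parental line (-2.34 ± 0.13), and Epha2, an abundant Eph receptor, had 511 and 539 CPM in the empty-vector line, against 366 and 358 CPM in the parental line (0.53 ± 0.061). Efna5 had 5.82 and 6.71 CPM in the empty-vector line, against 0.407 and 0.175 CPM in the parental line (4.39 ± 0.33). Ntn1, which encodes netrin 1, had 0.113 and 0.231 CPM in the empty-vector line, against 10.4 and 9.16 CPM in the parental line (-5.77 ± 0.32). Sema3a (1.02) and Sema3c (0.78), both in the chromosome 5 stretch, rose, while Sema3b was at -2.51 and Sema7a at -1.73, both on chromosome 9. Of Notch pathway genes 6 were called higher and 4 lower of 14, with the ligand Jag1 at 1.70 ± 0.15 and the feedback gene Nrarp at -1.76 ± 0.27.

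Feedback and effector genes of the MAPK pathway had 17 called higher, 5 lower and 7 not called of 29, with a median of 0.46. The AP-1 subunit Jun had 186 and 195 CPM in the empty-vector line, against 103 and 99 CPM in the parental line (0.91 ± 0.074), Jund was at 0.81 and Fosl1 at 0.44. Fosl2, at 1.15, lies in the chromosome 5 stretch. The inhibitors Spry4 (0.68), Spred2 (0.66), Spred3 (0.65) and Dusp6 (0.57) rose with them, and Etv5 had 25.7 and 27.4 CPM in the empty-vector line, against 12.4 and 12.8 CPM in the parental line (1.07 ± 0.092). Other phosphatases of the family fell: Dusp10 was at -1.08, Dusp5 at -0.67 and Dusp1 at -0.63. Myc (-0.13) and Junb (0.18) were not called.

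Cytokines, chemokines and their receptors had 16 called higher, 8 lower and 7 not called of 31, with a median of 0.43. The neutrophil chemokine Cxcl5 had 152 and 148 CPM in the empty-vector line, against 19.5 and 23.5 CPM in the parental line, and Cxcl1 had 129 and 124 CPM in the empty-vector line, against 29.2 and 29.5 CPM in the parental line. Cx3cl1, a membrane-bound chemokine, had 43.1 and 46.6 CPM in the empty-vector line, against 18.5 and 16.6 CPM in the parental line (1.35 ± 0.087). Tnf, the master inflammatory cytokine, was low but rose, with 2.66 and 2.89 CPM in the empty-vector line, against 0.523 and 0.467 CPM in the parental line (2.47 ± 0.36). The receptors for the interleukin 6 family rose too, Lifr with 13.9 and 14.9 CPM in the empty-vector line, against 1.98 and 2.45 CPM in the parental line (2.70 ± 0.15), Osmr at 1.23 and Il6ra at 0.95. Chemokines for other cells fell: Cxcl12, which retains cells in bone marrow, had 143 and 142 CPM in the empty-vector line, against 229 and 231 CPM in the parental line (-0.69 ± 0.065), Ccl9 was at -0.65 and Ccl7 at -0.37. Ccl2 rose (0.35) and Ccl5 was not called (-0.12).

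Genes of the NF-kB pathway had 7 called higher, 3 lower and 8 not called of 18. Vcam1, an adhesion receptor, had 303 and 315 CPM in the empty-vector line, against 153 and 153 CPM in the parental line (1.01 ± 0.062). Traf1 was at 1.23, Tnfaip2 at 0.96, Nfkbiz at 0.74 and the prostaglandin synthase Ptgs2 at 0.53. The subunits Rela (0.06), Nfkb1 (0.10) and Relb (0.13) were not called.

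Interferon-stimulated genes had 22 called higher, 8 lower and 21 not called of 51, with a median of 0.14. The guanylate-binding protein Gbp2 had 124 and 127 CPM in the empty-vector line, against 49.1 and 53.2 CPM in the parental line (1.30 ± 0.067). Zbp1, a sensor of Z-form nucleic acid, had 27 and 25 CPM in the empty-vector line, against 13.1 and 12.7 CPM in the parental line (1.02 ± 0.11). Stat2 (0.65) rose. Oas2 had 64.7 and 54.7 CPM in the empty-vector line, against 117 and 126 CPM in the parental line (-1.02 ± 0.11), Mx2 was at -1.34 and Irf7 at -0.35. The core genes Isg15 (-0.18), Rsad2 (-0.24) and Ifit1 (0.10) were not called. Of nucleic acid sensors and interferon receptors 11 were called higher and 3 lower of 21 (1 lower without parental replicate 3), among them the editing enzyme Adar (0.42) and Tlr4 (0.61) higher and the DNA sensor Cgas (-0.24) lower.

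Class I antigen presentation was mostly lower, with 16 called lower, 6 higher and 2 not called of 24 and a median of -0.31. The classical genes H2-K1, with 452 and 409 CPM in the empty-vector line, against 652 and 615 CPM in the parental line (-0.56 ± 0.065), and H2-D1, at -0.49, fell together with their light chain B2m (-0.44). The peptide transporter Tap1 was at -0.37, the immunoproteasome subunits Psmb8 at -0.54 and Psmb9 at -0.85. The chaperones of peptide loading rose: Tapbp, which encodes tapasin, was at 0.44, Canx at 0.21 and Pdia3 at 0.21. So did the trimming peptidase Erap1 (0.64). Class I genes are near-identical copies, and single-gene counts such as those of H2-Q6 (-1.02) and H2-Q7 (-1.82) are uncertain.

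Antioxidant genes, many of them targets of the transcription factor NRF2, had 23 called higher, 12 lower and 12 not called of 47. Nfe2l2, which encodes NRF2, had 142 and 143 CPM in the empty-vector line, against 91 and 95 CPM in the parental line (0.62 ± 0.061). Its inhibitor Keap1 was at -0.35. The quinone reductase Nqo1 had 144 and 136 CPM in the empty-vector line, against 50.4 and 45.7 CPM in the parental line, and the haem oxygenase Hmox1 had 174 and 178 CPM in the empty-vector line, against 67.5 and 67.2 CPM in the parental line. The glutathione synthesis subunit Gclm had 186 and 183 CPM in the empty-vector line, against 97.3 and 98.4 CPM in the parental line (0.91 ± 0.059), Srxn1 was at 0.70, Txnrd1 at 0.33 and the cystine transporter Slc7a11 at 0.93. Of the 12 members that fell, 8 lie on chromosomes 9 or X or in the chromosome 3 stretch that was lower, including the glutathione transferases Gstm1, Gstm2, Gstm4 and Gstm5. Outside these chromosomes and stretches 23 were called higher and 4 lower of 34.

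Metallothioneins and metal carriers were called higher in 8 and lower in 0 of 13, with a median of 0.43. No member was lower at an unadjusted p under 0.05 in edgeR, and DESeq2 called 0 lower. Mt2 had 104 and 106 CPM in the empty-vector line, against 63.1 and 70.3 CPM in the parental line (0.66 ± 0.076) and Mt1 was at 0.48. Ceruloplasmin, Cp, which carries copper and oxidises iron, had 125 and 132 CPM in the empty-vector line, against 31.6 and 32.8 CPM in the parental line (1.99 ± 0.072). The zinc importer Slc39a8 was at 0.92, the zinc exporter Slc30a1 at 0.31 and the transferrin receptor Tfrc was not called (-0.07).

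The integrated stress and unfolded protein responses had 13 called higher, 10 lower and 17 not called of 40. Transcription factors of the amino acid branch rose, with Atf4 at 0.42, Atf5 at 0.50 and Trib3 with 48.7 and 44.4 CPM in the empty-vector line, against 19.4 and 18.5 CPM in the parental line (1.30 ± 0.087). Of chaperone genes of the endoplasmic reticulum, Hyou1 was at -0.28, Manf at -0.32 and Hspa5 was not called (0.01). Hyou1 and Manf lie on chromosome 9, where most genes fell. Outside the shifted chromosomes and stretches, 13 of the group were called higher and 8 lower of 38. p53 targets had 6 called higher and 7 lower of 24, and 6 higher and 5 lower without parental replicate 1 or empty-vector replicate 3. Cdkn1a, which encodes p21, was at 0.22 ± 0.061, Mdm2 at 0.28 ± 0.064 and Trp53 itself at -0.15 ± 0.062.

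Cholesterol synthesis genes had 11 called higher, 8 lower and 9 not called of 28. Insig1, the sensor that restrains the pathway, had 121 and 116 CPM in the empty-vector line, against 40.0 and 42.5 CPM in the parental line (1.52 ± 0.068), and the demethylase Cyp51 had 201 and 197 CPM in the empty-vector line, against 89.7 and 99.9 CPM in the parental line (1.07 ± 0.067). Both lie in the chromosome 5 stretch, and 10 of the 28 lie in regions that were shifted as a whole. Outside them the split was 5 higher and 5 lower of 18. The exporter Abcg1 had 0.791 and 0.868 CPM in the empty-vector line, against 6.33 and 6.07 CPM in the parental line (-2.89 ± 0.24) and the exporter Abca1 2.26 and 1.91 CPM in the empty-vector line, against 0.174 and 0.233 CPM in the parental line (3.31 ± 0.4). Fatty acid genes had 9 called higher and 12 lower of 28 (5 higher without empty-vector replicate 2), with Acaca at -0.39, Acly at -0.33 and Elovl6 at 0.45.

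Glycolysis and hypoxia genes had 11 called higher and 10 lower of 32, and 9 higher and 10 lower without parental replicate 1, or 8 and 9 without parental replicate 3 or empty-vector replicate 2. Pdk1, which holds pyruvate back from mitochondria, had 19.8 and 23.1 CPM in the empty-vector line, against 8.83 and 9.39 CPM in the parental line (1.24 ± 0.11). Pfkfb3, which drives glycolysis, had 3.9 and 4.8 CPM in the empty-vector line, against 10.7 and 11.4 CPM in the parental line (-1.35 ± 0.14). The lactate dehydrogenase Ldha (0.11) and pyruvate kinase Pkm (-0.00) were not called. Nuclear genes of oxidative phosphorylation had 19 called lower and 5 higher of 44, with a median of -0.14, and 15 calls, 11 of them lower, without parental replicate 1 or empty-vector replicate 3. Cox7b had 76.6 and 73.9 CPM in the empty-vector line, against 143 and 128 CPM in the parental line (-0.85 ± 0.075) and Ndufs7 was at -0.54. Of mitochondrially encoded genes 1 of 13 was called, mt-Co3, with 1832 and 1539 CPM in the empty-vector line, against 1171 and 1443 CPM in the parental line (0.37 ± 0.1), a call lost without parental replicate 1 or empty-vector replicate 2.

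Arginine and polyamine genes had 7 called lower and 3 higher of 12, and 1 higher without parental replicate 1 or empty-vector replicate 2. Beside Ass1, the arginine carrier Slc7a3 had 0.622 and 0.405 CPM in the empty-vector line, against 5.75 and 4.03 CPM in the parental line (-3.23 ± 0.36), and the polyamine enzymes Odc1 (-0.40), Sms (-0.88) and Srm (-0.30) fell. Slc7a3 and Sms lie on the X chromosome, where most genes fell. Outside the shifted chromosomes and stretches, 2 were called higher and 4 lower of 8, with a median of -0.11. Asl, which follows Ass1 in the pathway, was not called (0.11).

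Ribosomal protein genes shifted downwards: of 77 tested, 55 were called lower, 0 higher and 22 were not called by edgeR, with a median of -0.21. At an unadjusted p under 0.05 edgeR had 1 higher, and DESeq2 called 0 higher. The shifts were small for most members. Rpl4 had 1854 and 1812 CPM in the empty-vector line, against 2684 and 2570.2 CPM in the parental line (-0.52 ± 0.054), Rpsa had 2409.8 and 2297 CPM in the empty-vector line, against 3151 and 3269 CPM in the parental line (-0.45 ± 0.058) and Rps6 was at -0.18. The largest differences were those of the X-linked Rps4x, given above, Rpl36a (-0.98 ± 0.073), Rpl39 (-0.91 ± 0.076) and Rpl10 (-0.81 ± 0.07). Of 66 members outside the shifted chromosomes and stretches, 45 were called lower. Without empty-vector replicate 3 the calls were 34 lower and 1 higher, and 1 was also higher without parental replicate 1, empty-vector replicate 2 or either T567A library. RNA helicases of the DEAD-box and DEAH-box families had 18 called lower and 8 higher of 38, with the initiation factors Eif4a1 at -0.25 and Eif4a2 at -0.34 and the nucleolar helicase Ddx21 at -0.34.

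DNA replication genes were called lower in 18 and higher in 3 of 34, with a median of -0.19, and higher in 1 without parental replicate 1. Subunits of the replicative helicase fell together: Mcm6 had 255 and 256 CPM in the empty-vector line, against 422 and 434 CPM in the parental line (-0.75 ± 0.057), Mcm5 was at -0.55, Mcm2 at -0.52, Mcm7 at -0.35, Mcm4 at -0.33 and Mcm3 at -0.32. The licensing factors Cdc6 (-0.49) and Cdt1 (-0.42) and the nucleotide enzyme Rrm2 (-0.46) fell with them. Tyms, which makes thymidylate, was at 1.07 and lies in the chromosome 5 stretch. Genes of the cell cycle and mitosis, by contrast, split evenly, with 9 called higher, 9 lower and 22 not called of 40. Ccnd1, which encodes cyclin D1, had 832 and 828 CPM in the empty-vector line, against 1300.3 and 1268 CPM in the parental line (-0.63 ± 0.055). Foxm1 was at -0.35, Ccna2 at 0.36, Ccnb1 at 0.30, and Mki67, the proliferation marker, was not called (0.21).

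Histone methyltransferases had 9 called lower and 4 higher of 25. Outside the shifted chromosomes and stretches, 1 was called higher and 6 lower of 18. Beside the loss of Nsd1, its paralogue Nsd2 rose (1.11 ± 0.059). It had 529.8 and 549 CPM in the empty-vector line, against 249 and 250.5 CPM in the parental line. Nsd2 lies in the chromosome 5 stretch, where most genes rose. Nsd3 was not called (-0.05). Setd2, the main enzyme for trimethylation of the same lysine, was not called (-0.10). Ehmt1, which methylates lysine 9, had 36.9 and 43.1 CPM in the empty-vector line, against 126 and 121 CPM in the parental line (-1.63 ± 0.077) and lies in the chromosome 2 stretch described below. The lysine 27 enzyme Ezh2 was not called (-0.16). Of DNA methylation genes 7 were called lower and 0 higher of 13 by edgeR, with 1 higher at an unadjusted p under 0.05, 0 called higher by DESeq2 and 1 called higher without parental replicate 1. Those that fell included the maintenance enzyme Dnmt1 at -0.41, Dnmt3a at -0.47 and Dnmt3b, with 0.339 and 0.463 CPM in the empty-vector line, against 3.55 and 2.68 CPM in the parental line (-2.94 ± 0.35).

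Most Hox genes, which hold positional identity in connective tissue cells, did not pass the test. Of 26 tested, 3 were called higher and 3 lower, or 23.1% in all, beside 54.6% of all tested genes. Without parental replicate 3 there were 0 higher and 4 lower, and without empty-vector replicate 2 there were 1 higher and 4 lower. Hoxc13 had 84.2 and 85.8 CPM in the empty-vector line, against 87.5 and 90.1 CPM in the parental line and Hoxc10 had 54.1 and 58.3 CPM in the empty-vector line, against 57.9 and 55.8 CPM in the parental line, and neither was called. Hoxb9 had 0.961 and 0.868 CPM in the empty-vector line, against 4.71 and 6.36 CPM in the parental line (-2.59 ± 0.3). Other patterning factors of limb and skeleton were called higher in 11 and lower in 14 of 30. Outside the shifted chromosomes and stretches, 7 were called higher and 11 lower of 23. Sox4 had 34.8 and 34.8 CPM in the empty-vector line, against 9.59 and 10.6 CPM in the parental line (1.79 ± 0.12). Foxf2 was at 1.45, while Foxc2 was at -1.45 and Tbx18 at -1.17. Sox4 and Foxf2 lie on chromosome 13, where most genes rose, and Tbx18 on chromosome 9, where most fell. Of 8 imprinted genes 6 were called higher and 2 lower, with Sgce, expressed from the paternal allele beside Peg10, at 1.43 ± 0.075 and Zrsr1 with 0.17 and 0.231 CPM in the empty-vector line, against 5.93 and 5.43 CPM in the parental line (-4.78 ± 0.33).

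Ion channels and transporters had 6 called higher and 8 lower of 25. The mechanosensitive potassium channel Kcnk2 had 33 and 34.7 CPM in the empty-vector line, against 6.97 and 7.12 CPM in the parental line (2.26 ± 0.098), and Kcnj2 had 0.283 and 0.231 CPM in the empty-vector line, against 1.8 and 2.98 CPM in the parental line (-3.18 ± 0.41). Enzymes of sialic acid and glycan synthesis had 9 called higher and 8 lower of 25. With Renbp nearly absent, the synthesis enzymes Cmas (0.48) and Nans (0.27) rose, Gne was not called (-0.18) and the sialyltransferase St6gal1 had 7.97 and 7 CPM in the empty-vector line, against 14.9 and 15.5 CPM in the parental line (-1.02 ± 0.13). The hyaluronan-degrading Cemip was at -0.89 ± 0.082.

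**Figure D3:**
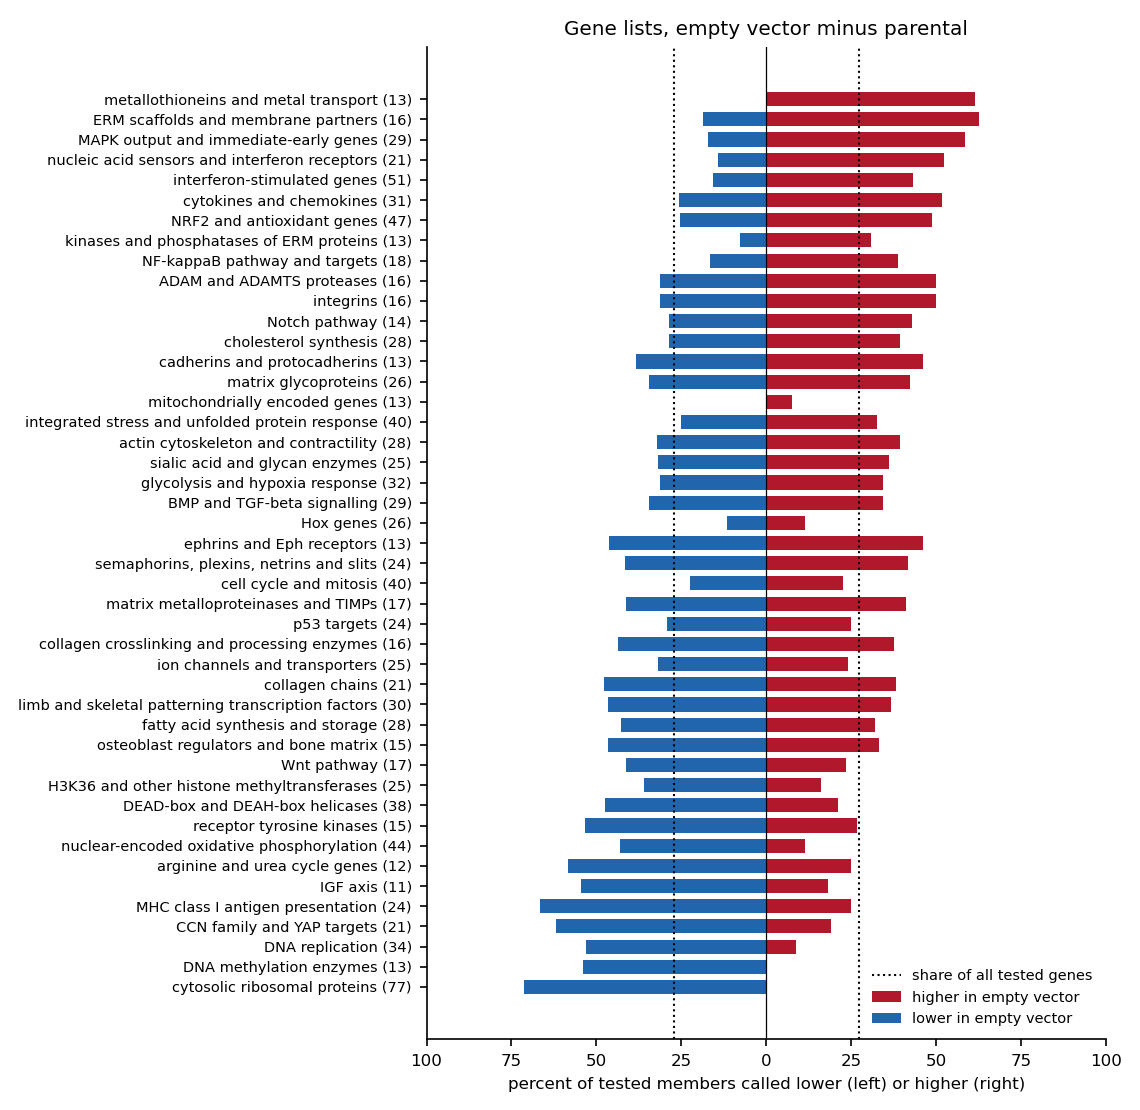
For each of the 45 gene groups with at least 10 tested members, the percent of tested members called higher and the percent called lower in the empty-vector line against the parental line. Dotted lines mark the shares over all tested genes, 27.4% and 27.2%. Ribosomal proteins, DNA replication genes and class I genes lie past the line for lower calls, and MAPK and metal genes past the line for higher calls.

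Differences were not spread evenly along the genome. Whole chromosomes and long stretches were shifted one way. The stretches were found from these values, so they are given as a description without a test. No DNA was measured in the files used here, and the cause of the shifts was not tested.

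On the X chromosome 299 of 373 tested genes were called lower and 25 higher, with a median log2 difference of -0.77. The chromosome took 1.88% and 1.90% of all counts in the empty-vector libraries and 2.89% and 2.91% in the parental libraries. Xist, the RNA that silences 1 X chromosome in female cells, went the other way, with 606 and 671 CPM in the empty-vector line, against 393 and 494 CPM in the parental line (0.53 ± 0.16, adjusted p 0.025, edgeR). In the ezrin-carrying lines Xist had 549 to 891 CPM. The Y-linked genes Ddx3y, Uty, Kdm5d and Eif2s3y had no count in any library. The shift reached along the chromosome, with median log2 differences of -0.81 from Shroom4 to Lage3, -0.77 from Irak1 to Brwd3 and -0.72 from Diaph2 to Luzp4.

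Chromosome 13 was shifted up, with 326 called higher and 33 lower of 479 and a median of 0.44. It took 3.14% and 3.17% of counts in the empty-vector libraries and 2.39% and 2.42% in the parental libraries. Chromosome 9 was shifted down by less, with 366 called lower and 61 higher of 680 and a median of -0.26, and took 6.24% and 6.24% of counts in the empty-vector libraries against 7.69% and 7.54% in the parental libraries.

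Shorter stretches were sharper. On chromosome 5, from Cdk6 to Zcchc4 (chr5:3341485-52824665), 190 of 224 tested genes were called higher and 9 lower, with a median of 1.06. The rest of that chromosome, 582 genes, had a median of 0.0086. On chromosome 2, from St8sia6 to Inpp5e (chr2:13651021-26409203), 58 of 81 were called lower and 7 higher, with a median of -1.19, beside 0.10 for the other 933 genes. On chromosome 3, from Dennd2c to Aknad1 (chr3:103102604-108782309), 42 of 61 were called lower and 2 higher, with a median of -0.93. The other 562 genes of that chromosome had 305 called higher and 71 lower, with a median of 0.30, and they remain in the counts given as outside the shifted regions. Of the abundant genes described above, Csf1 lies in the chromosome 3 stretch, Tubb4b in that of chromosome 2 and Mrfap1 in that of chromosome 5. Rps4x and Slc25a5 are X-linked. Col1a1, Mmp2, Ccn3 and Cdc20b lie in none of these 3 stretches, but Cdc20b lies on chromosome 13, where most genes rose.

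Single genes could go against their stretch. On chromosome 5 the zinc finger gene Zfp518b had 0.735 and 0.81 CPM in the empty-vector line, against 8.54 and 7.88 CPM in the parental line (-3.40 ± 0.21). The Wnt receptor gene Fzd1 in the same stretch fell too (-1.74 ± 0.19). The drug efflux pump Abcb1a had 7.74 and 7.35 CPM in the empty-vector line, against 0.697 and 0.875 CPM in the parental line (3.25 ± 0.24). Among genes that rose by more than the median of the stretch, Ift172, a ciliary transport gene, had 68.6 and 72.8 CPM in the empty-vector line, against 19.4 and 22.8 CPM in the parental line (1.74 ± 0.087) and Depdc5, an inhibitor of mTORC1, had 63.4 and 70.5 CPM in the empty-vector line, against 24.5 and 22.5 CPM in the parental line (1.51 ± 0.08). On chromosome 2 the lipid transporter Abca2 had 11.2 and 12.7 CPM in the empty-vector line, against 114 and 115 CPM in the parental line (-3.26 ± 0.084).

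The ezrin-carrying lines were set against the same parental libraries, so their medians are not independent of these and are given side by side. In the chromosome 5 stretch the medians were 0.99 for wild-type ezrin, 0.87 for T567A and 0.98 for T567D minus parental. In the same order they were -1.31, -1.22 and -1.28 in the chromosome 2 stretch and -0.87, -0.91 and -0.91 in that of chromosome 3. Along X they were -0.69, -0.60 and -0.59, and along chromosome 9 they were -0.31, -0.30 and -0.23. Leaving out the 3 stretches and chromosomes 9, 13 and X removed 1898 tested genes and 476 of the differences over 2-fold. Of the 10697 genes that remained, 5461 were called (51.1%), and 1187 differed over 2-fold.

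**Figure D4:**
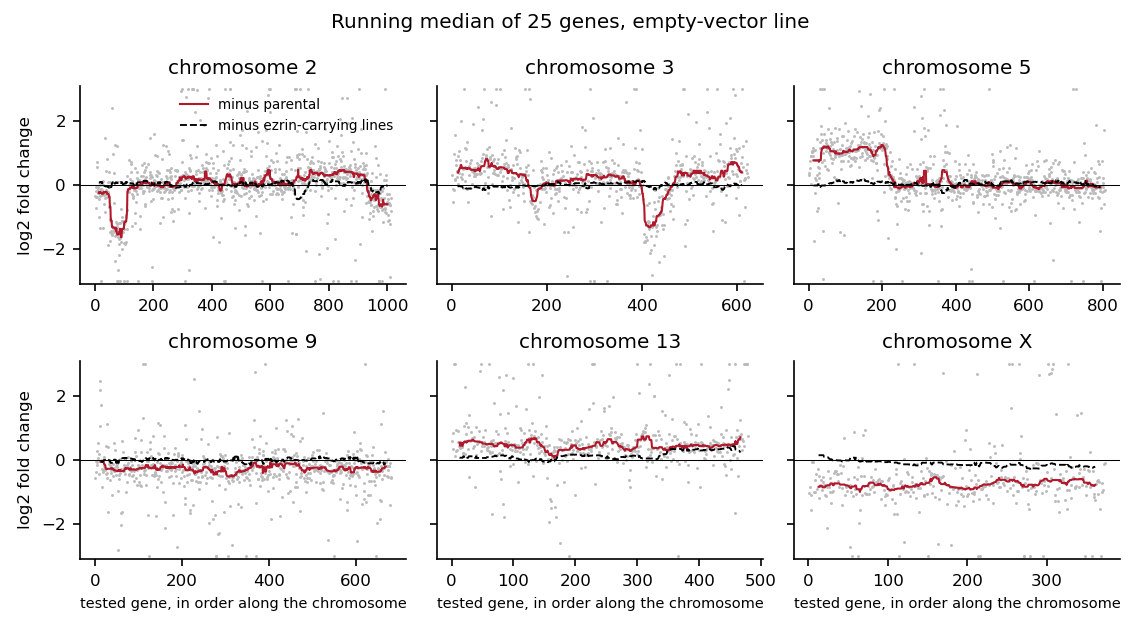
Log2 differences of tested genes in their order along chromosomes 2, 3, 5, 9, 13 and X, grey points empty vector minus parental, with points beyond 3 drawn at the edge. The solid line is the running median of 25 genes for empty vector minus parental and the dashed line that for empty vector minus the mean of the ezrin-carrying lines. The solid line leaves 0 in the stretches of chromosomes 2, 3 and 5 and along X. The dashed line has a median over single genes of -0.11 along X, and toward the end of chromosome 13 both lines lie above 0.

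The comparison with the ezrin-carrying lines set the empty-vector line beside edited cells that carry ezrin. The empty-vector libraries enter both comparisons, so they are not independent. In empty vector minus the mean of the 3 ezrin-carrying lines, 3725 genes were called (29.6%), 1895 higher (15%) and 1830 lower (14.5%). Differences over 2-fold were 324, with 51 higher and 273 lower. Without empty-vector replicate 2 the calls were 1900 and without empty-vector replicate 3 they were 2043. Without T567A replicate 3 they were 4316.

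Ezr had 72.4 and 72.9 CPM in the empty-vector line, 230.4 and 233 CPM with wild-type ezrin, 248 and 253 CPM with T567A and 204 and 181 CPM with T567D. The difference from their mean was -1.62 ± 0.058 (adjusted p 1.3e-14, edgeR). In the ezrin-carrying lines counts of the vector and of the gene cannot be told apart. Rdx (0.11), Msn (0.05) and Nf2 (0.06) were not called.

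Cdc20b, highest in this comparison as in the one with parental cells, had no count in 5 of the 6 ezrin-carrying libraries and 2 counts in the sixth, T567D replicate 3. Ccno was at 1.48 ± 0.12 in this comparison. Both lie in the end part of chromosome 13. From Arsb onward (chr13:93771630-120308779) 79 of 124 tested genes were higher than in the ezrin-carrying lines and 5 lower, with a median of 0.32. The same genes had medians against parental of 0.47 in the empty-vector line and of 0.12, 0.16 and 0.11 in the wild-type, T567A and T567D lines. The earlier part of the chromosome, 355 genes, had medians of 0.43 in the empty-vector line and 0.36, 0.34 and 0.36 in the others. The 4 highest windows of 25 genes in this comparison, with medians of 0.35 to 0.43, all lay in that end part, and the boundary was chosen from these values. Foxd1 and Ccnb1, given below, also lie in the end part. The part of this shift in the levels of Cdc20b, Ccno, Foxd1 and Ccnb1 was not tested.

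The chemokine Cxcl5 had 152 and 148 CPM in the empty-vector line, 32.1 and 31.9 CPM with wild-type ezrin, 54 and 47.8 CPM with T567A, 25 and 30.3 CPM with T567D and 19.5 and 23.5 CPM in the parental line. The empty-vector libraries lay above all others, at 2.08 ± 0.065 from the mean of the ezrin-carrying lines. Other genes higher than in the ezrin-carrying lines were the RNase Zc3h12a, which trims inflammatory mRNAs (1.31 ± 0.078), the small heat shock protein gene Hspb7 (1.51 ± 0.061), Map6 (1.42 ± 0.1), the procollagen peptidase Adamts2 (1.88 ± 0.11), the transcription factor Foxd1 (1.52 ± 0.082), the receptor gene Sirpa and Nkain1 (1.33 ± 0.11). Sirpa had 19.2 and 23.1 CPM in the empty-vector line, 8.26 and 7.08 CPM with wild-type ezrin and 26.7 and 29.8 CPM in the parental line, so that the empty-vector line lay between them.

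Genes lower than in the ezrin-carrying lines included Megf6, Fmnl1, Itga11 and Chd3, which were also lower than in parental cells. Megf6 (-3.49 ± 0.22), Fmnl1 (-2.71 ± 0.18), Itga11 (-2.36 ± 0.17) and Chd3 (-1.92 ± 0.14) were in each of these lines between the empty-vector and the parental level. Itga11, for example, had 2.03 and 1.27 CPM in the empty-vector line, 6.58 and 7.25 CPM with wild-type ezrin, 13.7 and 15.7 CPM with T567A, 5.49 and 6.72 CPM with T567D and 62.7 and 60.7 CPM in the parental line. Ogn (-1.93 ± 0.063) and Omd (-1.90 ± 0.11), the neighbouring proteoglycan genes, the Rac activator Arhgef6 (-1.75 ± 0.13), Hap1 (-1.73 ± 0.12), Rab3b (-1.84 ± 0.15) and the transporter gene Abca9 (-1.86 ± 0.19) were lower as well. Nsd1, Renbp and Adgrl1 were at 0.35 CPM or less in every edited library.

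Cell division genes, with 9 called higher and 9 lower against parental cells, lay above the ezrin-carrying lines. Of cell cycle genes 31 of 40 were higher than in the ezrin-carrying lines and 1 was lower, with medians of 0.24 against wild-type ezrin, 0.47 against T567A and 0.21 against T567D. Ccnb1, in the end part of chromosome 13, was at 0.67, Mybl2 at 0.61 and Aurkb at 0.39. Of DNA replication genes, 3 higher and 18 lower against parental cells, 23 of 34 were higher and 0 lower by edgeR, with 0 lower at an unadjusted p under 0.05 and 0 by DESeq2. This count was 14 to 15 without 1 empty-vector library. Interferon-stimulated genes were lower in 38 of 51 and higher in 0, also in 0 at an unadjusted p under 0.05 and by DESeq2. The lines differed here: the median was -1.13 against T567A, 0.07 against wild-type ezrin and 0.08 against T567D. Cholesterol synthesis genes were higher in 13 of 28 and lower in 1, and higher in 5 to 8 without 1 empty-vector library. Their median was 0.41 against wild-type ezrin, -0.38 against T567A and 0.25 against T567D.

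**Figure D5:**
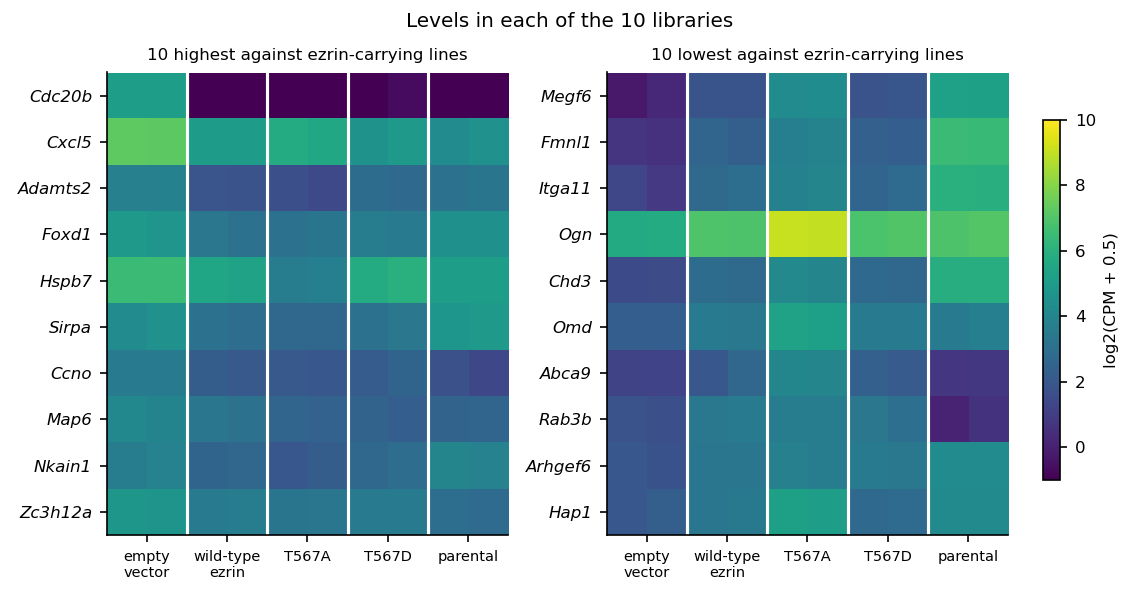
Level of the 10 genes most above and the 10 most below the mean of the ezrin-carrying lines, in each of the 10 libraries ordered by line with parental last, as log2(CPM + 0.5). Cdc20b is bright in the empty-vector libraries alone, Cxcl5 is brightest there, and Megf6, Fmnl1 and Itga11 are dark there and brightest in the parental libraries.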

How the data were processed

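Poly-A RNA of mouse K7M2 lines was sequenced with a strand-specific protocol, per the labels' protocols. The authors deposited whole-number read counts and RPKM values per gene for each library, with GRCm38 as the build per the submitters' processing notes; aligner, annotation and strand setting: not given in the sources used here. RPKM (per gene length) served for levels between genes. Counts were fitted with edgeR 4.0.16 (TMM scaling, robust quasi-likelihood) over 10 libraries in 5 lines of 2, with 5 residual degrees of freedom, after edgeR's filter with a minimum count of 10 and a total of 15 (12595 of 41743 names). Calls have a Benjamini-Hochberg adjusted p under 0.05. CPM uses TMM-scaled library sizes.

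Positions came by symbol from GENCODE (GRCm38) for 40501 names, and promoters from RefSeq (GRCm38.p6). Genes were named by rank of change, level, group, distance from Ezr, near-zero level or chromosome window. The comparison, groups and lists were chosen with earlier results of these data known. Alternatives were scaling, filter, DESeq2 1.42.0, limma 3.58.1 on log2(RPKM + 1) and log2(RPKM + 0.1), a replicate block and left-out libraries. On simulated data for empty vector minus parental, the fit over 12595 genes, 200 of them changed, recovered 77% of 1.5-fold and 83% of 2-fold changes, with 11 false among 171 calls. In that simulation few genes changed and the other lines were alike, unlike here, so its rates need not hold for these data. A few genes are not reported here.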

Additional observations from a re-analysis of the deposited data

How the results depend on the processing

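Of 363 genes named against parental cells, 357 were called. Under 21 other settings no call reversed. Of these genes 297 were tested in every setting, and 201 of them were called in every one. Of 7434 gene and setting combinations tested 212 lost the call, 106 of them in the test against a 1.5-fold change and 57 when a library was left out. The 20 genes named against the ezrin-carrying lines kept their calls in all 21. They were picked as the largest called differences of the main fit without overlap of libraries, so this says little about the other calls. Scaling moved medians by less than 0.1.

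The 6879 calls against parental cells were 1857 in the test against a 1.5-fold change, which by construction asks for larger differences. Leaving out a library gave 5638 to 7361. The share of calls that were higher was 48.3% to 56.0% over all settings, beside 50.1%. Scaling of the counts sets the typical gene near 0, so this share cannot show a shift common to most genes. The 1663 calls over 2-fold were 879 with a filter of 5 CPM in 2 libraries, which tests fewer genes, and 538 on log2(RPKM + 1), which shrinks low genes. Leaving out a library gave 1576 to 1728. The 771 calls among listed genes were 667 to 804. Against the ezrin-carrying lines, the 3725 calls were 166 in the test against a 1.5-fold change, 2300 at an adjusted p under 0.01, and 1900 to 4316 with a library left out, lowest without empty-vector replicate 2 and 2043 without empty-vector replicate 3.

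With a replicate block the counts were 5697, 1610 over 2-fold, and 2843 against the ezrin-carrying lines. The empty-vector and parental lines share only replicate number 3. Deviations of same-numbered libraries correlated at -0.10 to 0.07. With 2 libraries a line, this cannot decide whether the numbers pair the samples. With the block, 12 of 13 mitochondrially encoded genes were called lower than in the ezrin-carrying lines, beside 0 in the main fit. Chosen after seeing the data, leaving out the 3 chromosome stretches and chromosomes 9, 13 and X gave 5461 calls and 1187 over 2-fold.

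With 2 libraries a line, the spread is shared over all 5 lines. The p-values measure spread between libraries of 1 line each, and line and treatment history cannot be told apart from ezrin disruption.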
